A study of Homo sapiens with 6 samples.

Results

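The RNAs described here are those of 9 genes that regulate the p53 protein, carry out its orders on growth and death, or encode survival proteins. The 9 are *MDM2*, *MDM4*, *USP7*, *CSNK1A1*, *CDKN1A*, *BCL2*, *BCL2L1*, *MCL1* and *BBC3*. They were picked by gene name, and 9 of the 60655 genes in the count table carry these names. All were measured by RNA immunoprecipitation sequencing (RIP-seq) in WaGa, an established Merkel cell carcinoma (MCC) cell line of wild-type genotype that received no treatment. RNA brought down with an IGF2BP3 antibody (IGF2BP3 IP, 3 libraries) was compared with RNA brought down with control IgG (IgG IP, 3 libraries), using 5 μg of antibody in both. The comparison asks which RNAs are overrepresented with IGF2BP3, an RNA-binding protein that the sample labels call IMP3. No input library is among the samples, and counts were scaled to a common library size. A fold change is therefore a shift relative to the other RNAs of the IP, not the amount of an RNA brought down. As 1 line was used and nothing says how far the 3 numbered replicates were separated, p-values measure only the spread between these libraries.

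MDM2 is a ubiquitin ligase that marks p53 for degradation, and MDM4 is its relative that blocks p53 and pairs with MDM2. USP7 removes ubiquitin from both p53 and MDM2. CSNK1A1 encodes casein kinase 1 alpha, which works with MDM4 to restrain p53. When p53 is active it switches on *CDKN1A*, the cell cycle inhibitor p21, and *BBC3*, the cell death inducer PUMA, which is opposed by the survival proteins BCL2, BCL-xL (*BCL2L1*) and MCL1. MCC that carries the Merkel cell polyomavirus usually keeps wild-type p53, and the viral small T antigen is known to raise MDM2 and casein kinase 1 alpha.

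None of the 9 RNAs was enriched or lower in the IGF2BP3 IP. An RNA was called enriched or lower with a fold change of at least 1.5 (0.585 on the log2 scale) and a Benjamini-Hochberg adjusted p under 0.05, computed with the quasi-likelihood test of edgeR across all 14507 tested RNAs. Adjusted p-values below are of this kind unless another tool is named. By this rule 1.16% of tested RNAs passed as enriched and 0% as lower. All 9 passed the filter on low counts. Their log2 fold changes ran from -0.24 for *BBC3* to 0.17 for *BCL2L1*, with a median of -0.04, against -0.01 over all tested RNAs. By unadjusted p-value, 0 of the 9 were under 0.05, against 12.8% of all tested RNAs. Other fits also called 0 of the 9, while over all RNAs they called 2.22% enriched with DESeq2 and 2.91% with DESeq2 and the replicate number as a block, 3.56% with that block in edgeR, 3.7% with replicate 1 as a term, and 1.89% and 2.83% with the block and a correction for GC content or for length. The shares called lower in the same fits were 0%, 0.00906%, 0.103%, 0.159%, 0.221% and 0.221%. Without the fold minimum, the block gave 0 of the 9 an adjusted p under 0.05, against 10.9% of all RNAs higher and 5.23% lower. By that looser rule only *BCL2L1* was higher with replicate 1 as a term (log2 fold change 0.17, adjusted p = 0.038), where 11.8% of all RNAs were. *MDM2*, *BCL2* and *MCL1* were lower by it with the length correction and the block (-0.18, -0.20 and -0.19, with adjusted p-values of 0.0046, 0.0036 and 0.0062), where 15.3% of all RNAs were. The 95% confidence interval of each of the 9 stayed below a 1.5-fold increase, which held for 65.6% of all tested RNAs. For 8 of the 9 it also stayed above a 1.5-fold decrease, and the exception was *BBC3*. Both limits held for 53.7% of all tested RNAs. These intervals come from the counts and bound the shift relative to other RNAs, not the extent of association with IGF2BP3. In TPM, the length-scaled values that the authors deposited, the spread was wider and only 3 of the 9 upper bounds lay below the 1.5-fold increase.

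Libraries held 9758759 to 14886414 counts, of which 0.153% to 0.170% fell on the 9 RNAs. The defining markers of MCC were present, with 10 of 10 above 1 TPM in every library and a summed level of 2212 to 3334 TPM in the IgG IP and 2585 to 3470 TPM in the IGF2BP3 IP. Of 6 lymphocyte markers, 4 had 0 counts in all libraries and the sum did not exceed 0.7 TPM. Of 6 fibroblast markers only *DCN* was above 1 TPM in every library, at 29.2 to 54.1 TPM. In the IgG IP and in the IGF2BP3 IP alike, replicate 1 was unlike the other libraries, with a chi-square per degree of freedom of 16.3 to 19.7 in pairs that include it, against 2.13 and 3.06 between replicates 2 and 3.

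IGF2BP proteins are known to favour CA-rich RNA and the UGGAC context of methylated adenosines, so the canonical transcripts (GENCODE version 44, GRCh38) were searched on the RNA strand for TGGAC, which is UGGAC in the RNA, and for ACACA. Each stretch below is the 25 bases with the most motif letters in its transcript, preferring stretches with both motifs, and motif letters are in capitals. *MDM2* and *MDM4* are shown because they encode related proteins, the *MDM2* stretch with ACACA alone and the *MDM4* stretch with both motifs, and *BCL2L1* because it had the highest fold change of the 9. They come from the 3′ UTR of *MDM2* (chr12:68841546-68841570, plus strand), the 3′ UTR of *MDM4* (chr1:204551578-204551602, plus strand) and the 5′ UTR of *BCL2L1* (chr20:31722239-31722263, minus strand).
MDM2: ccctttttcACACACAaaaaaatcc
MDM4: acaACACAtatggaaatTGGACatc
BCL2L1: ggtgtttTGGACaaTGGACtggttg
Over the whole transcript *BCL2* held 17 copies of ACACA, more per kilobase than 92.0% of the tested transcripts, and *BCL2L1* held 0. *CDKN1A* was the richest in TGGAC, with 7 copies in 2117 bases, more per kilobase than 96.5% of the tested transcripts, and *MDM2* was poor in it, with 3 copies in 7490 bases. Of all tested transcripts, 89.4% held TGGAC and 84.2% held ACACA. A match is no binding site, and RIP-seq counts do not say where on an RNA a protein sits.

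*MDM2* (ENSG00000135679.25, chromosome 12 from 68808177 to 68845544 on the plus strand, 11 exons) was the most abundant of the 9. Normalized CPM are counts scaled to a common library size with TMM factors and are given in the order of replicates 1, 2 and 3. *MDM2* had 635, 582 and 576 with control IgG and 573, 561 and 517 with the IGF2BP3 antibody. Every IGF2BP3 IP library lay below every IgG IP library, by a narrow margin. Its log2 fold change of -0.12 had a standard error of 0.081 and a 95% confidence interval of -0.30 to 0.065 (adjusted p = 0.59), and the exact two-sided permutation test gave p = 0.1, the smallest that 3 libraries against 3 allow. With the replicate number as a block the interval narrowed to -0.23 to -0.01, and the adjusted p was 0.13. In TPM the log2 fold change was 0.070, where the median of all tested RNAs was also above 0, at 0.11.

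*MDM4* (ENSG00000198625.13, chromosome 1 from 204516379 to 204558120 on the plus strand) had normalized CPM of 101, 94.9 and 106 with control IgG and 112, 106 and 105 with the IGF2BP3 antibody. The groups overlapped, and the log2 fold change was 0.10 (95% confidence interval -0.079 to 0.28, adjusted p = 0.65). Its sign depended on the length correction, which put it at -0.070 and the median of all tested RNAs at -0.052. Its canonical transcript of 10050 bases is the longest of the 9, of which 8441 bases are 3′ UTR.

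*USP7* (ENSG00000187555.16, chromosome 16 from 8892097 to 8975328 on the minus strand) had normalized CPM of 131, 171 and 159 with control IgG and 135, 165 and 169 with the IGF2BP3 antibody. Replicate 1 was the lowest library in both groups, and the groups overlapped fully. A log2 fold change of 0.02 (95% confidence interval -0.25 to 0.30, adjusted p = 0.97) was the closest to 0 of the 9, and it changed sign with the GC correction (-0.016), the length correction (-0.049) and when replicate 1 of the IgG IP (-0.076) or replicate 2 or 3 of the IGF2BP3 IP (-0.024 and -0.052) was left out. With the GC and length corrections the median of all tested RNAs was itself at -0.026 and -0.052.

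*CSNK1A1* (ENSG00000113712.19, chromosome 5 from 149492982 to 149551471 on the minus strand) had normalized CPM of 203, 207 and 196 with control IgG and 191, 182 and 191 with the IGF2BP3 antibody. Like *MDM2*, its groups did not overlap, with the IGF2BP3 IP lower. That order held for 2 of the 9 RNAs and for 8.69% of all tested RNAs, and the opposite order for 0 of the 9 and for 12% of all. The log2 fold change of *CSNK1A1* was -0.11 (95% confidence interval -0.27 to 0.06, adjusted p = 0.59), and 0.048 in TPM. The exons of *AC021078.1*, a long noncoding RNA on the same strand, overlap *CSNK1A1*. It held 199 to 276 counts per library, up to 11.3% of the *CSNK1A1* counts, with a log2 fold change of -0.19 (adjusted p = 0.63), so reads of the overlap are uncertain. Of the 19 genes that overlap any of the 9, it was the only one with 50 counts or more, and 15 held at most 10.

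**Figure D1:**
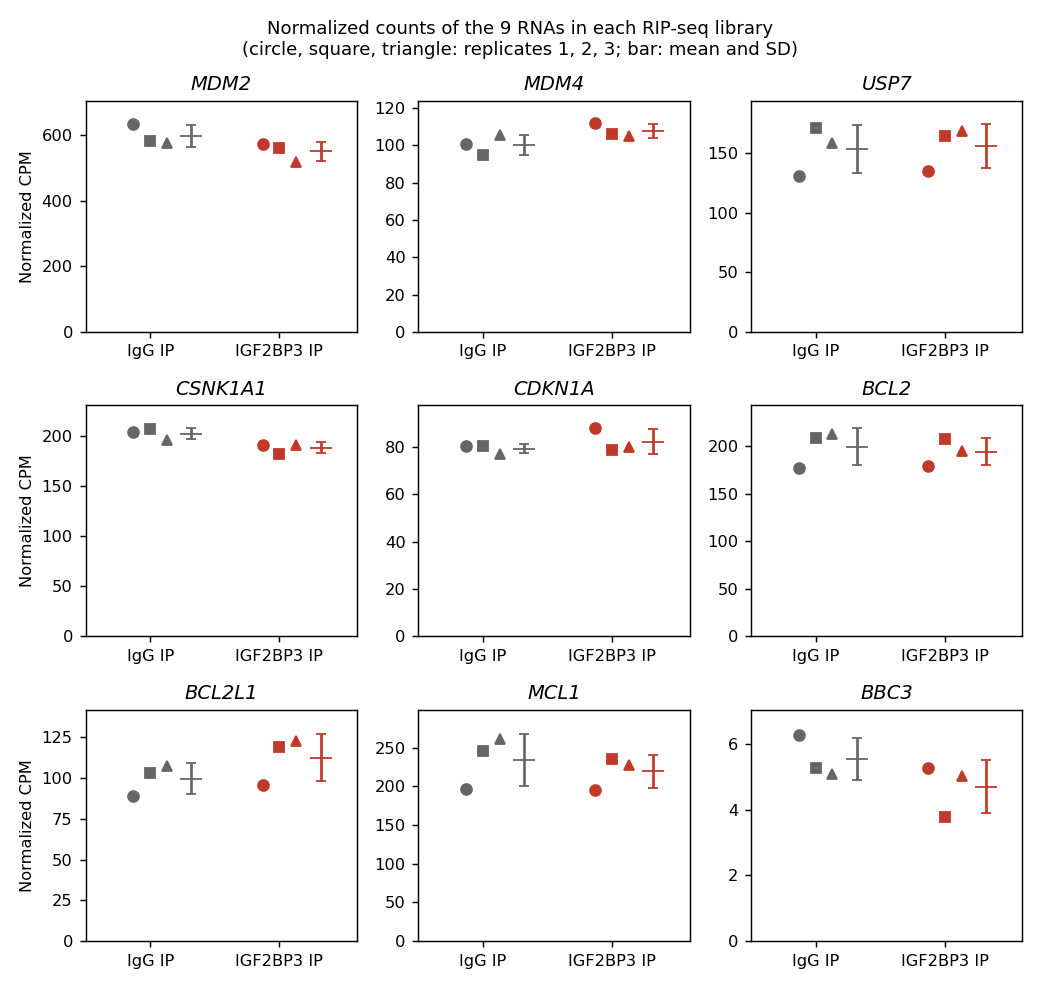
Normalized CPM (y axis, from 0) of the 9 RNAs in 3 IgG IP libraries (grey) and 3 IGF2BP3 IP libraries (red), with circle, square and triangle for replicates 1, 2 and 3 and the group mean and SD at the right of the points. The groups overlap for 7 RNAs, and for *MDM2* and *CSNK1A1* all IGF2BP3 IP points lie slightly below the IgG IP points.

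Among the p53 targets, *CDKN1A* (ENSG00000124762.14, chromosome 6 from 36676460 to 36687337 on the plus strand, 3 exons) had normalized CPM of 80.2, 80.3 and 76.9 with control IgG and 88.1, 78.7 and 79.7 with the IGF2BP3 antibody. Only IGF2BP3 IP replicate 1 stood above the IgG IP libraries. Its log2 fold change was 0.05 (95% confidence interval -0.13 to 0.24, adjusted p = 0.84), and -0.10 with the GC correction.

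*BBC3* (ENSG00000105327.18, chromosome 19 from 47220822 to 47232766 on the minus strand) was the scarcest of the 9, with 50 to 79 counts per library. They came to normalized CPM of 6.29, 5.29 and 5.08 with control IgG and 5.29, 3.78 and 5.04 with the IGF2BP3 antibody. The groups overlapped, and IGF2BP3 IP replicate 2 was the lowest library. At -0.24 (standard error 0.20, adjusted p = 0.68) its log2 fold change sat at percentile 10.2 of the tested RNAs, but its 95% confidence interval of -0.69 to 0.22 was the widest of the 9. A 1.5-fold decrease was not distinguishable from no change at this depth. The *BBC3* transcript is 69.7% G and C, more than 99.6% of the tested transcripts, and the GC correction moved its log2 fold change to -0.50 (adjusted p = 0.43). It was at -0.10 without IGF2BP3 IP replicate 2 and at -0.14 without IgG IP replicate 1.

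Of the survival genes, *BCL2L1* (ENSG00000171552.14, chromosome 20 from 31664452 to 31723989 on the minus strand) had the highest fold change of the 9. Its normalized CPM were 88.8, 103 and 107 with control IgG and 95.9, 119 and 123 with the IGF2BP3 antibody. In 3 of 3 pairs of one replicate number the IGF2BP3 IP was the higher, while IGF2BP3 IP replicate 1 fell within the IgG IP range. The log2 fold change of 0.17 (standard error 0.12, 95% confidence interval -0.088 to 0.44, adjusted p = 0.58) sat at percentile 73.5 of the tested RNAs. The replicate block narrowed the interval to 0.05 to 0.30, still under the 1.5-fold minimum, and the adjusted p was 0.056. After the GC correction *BCL2L1* was at 0.026.

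*BCL2* (ENSG00000171791.14, chromosome 18 from 63123346 to 63320128 on the minus strand) had normalized CPM of 178, 208 and 213 with control IgG and 180, 208 and 195 with the IGF2BP3 antibody, and a log2 fold change of -0.04 (95% confidence interval -0.26 to 0.18, adjusted p = 0.91). *MCL1* (ENSG00000143384.14, chromosome 1 from 150560895 to 150579738 on the minus strand) had 197, 245 and 262 with control IgG and 196, 236 and 227 with the IGF2BP3 antibody, and a log2 fold change of -0.10 (95% confidence interval -0.37 to 0.17, adjusted p = 0.79). Both were lowest in the replicate 1 libraries and overlapped between groups.

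**Figure D2:**
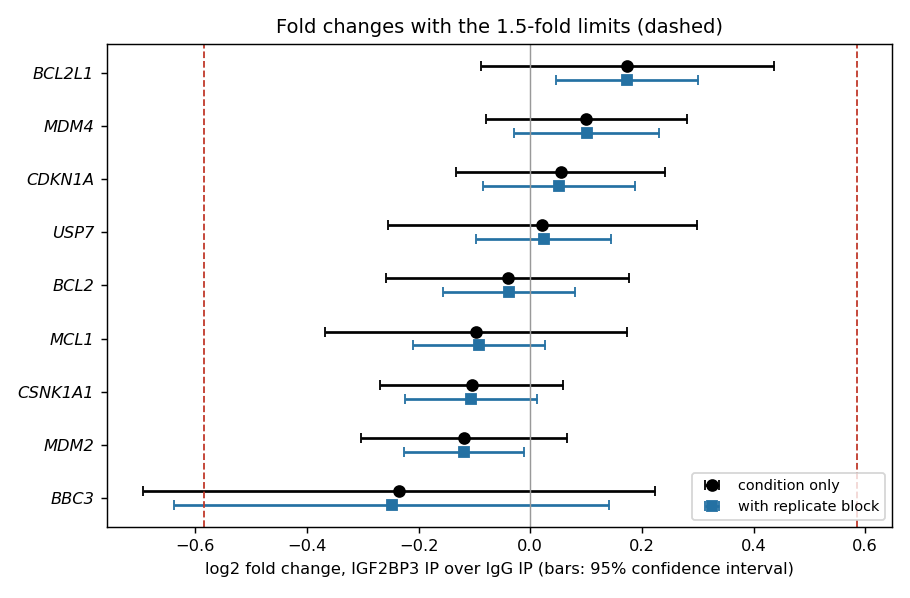
Log2 fold changes (x axis) of the 9 RNAs in the IGF2BP3 IP over the IgG IP with 95% confidence intervals, from edgeR with condition as the only term (black circles) and with the replicate number as a block (blue squares). All upper bounds lie below the 1.5-fold limit (dashed), and only the lower bounds of *BBC3* pass the limit on the other side.

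As replicate 1 was unlike the other libraries over all RNAs, its differences are given for the 9. The share of all tested RNAs with differences as large was not counted. Each rests on a single replicate 1 library, so the sizes were not compared with those for the antibody. Replicate 1 was below the mean of replicates 2 and 3 for *USP7* (log2 difference -0.33 in the IgG IP and -0.30 in the IGF2BP3 IP), *MCL1* (-0.36 and -0.24), *BCL2L1* (-0.24 and -0.33) and *BCL2* (-0.25 and -0.17). For *BBC3* it was above that mean (0.28 and 0.26). In the IGF2BP3 IP, however, *BBC3* was nearly level in replicates 1 and 3 (5.29 and 5.04 normalized CPM) and low in replicate 2 (3.78). The differences were 0.13 and 0.09 for *MDM2*, and 0.03 and 0.15 for *CDKN1A*. For *MDM4* and *CSNK1A1* these differences were at most 0.08. The most alike patterns over the 6 libraries were those of *BCL2* and *MCL1* (Pearson's r = 0.98 of log2 normalized CPM), whose 6 points share the split between replicate 1 and the others. *MDM2* was most like *CSNK1A1* among the 9 (r = 0.57), and among the related genes listed below most like *CHEK1* (r = 0.98), *CDKN1B* (r = 0.98) and *CYCS* (r = 0.96). These were picked as the highest r over only 6 libraries, and how many tested RNAs reach such values was not counted. Each, like *MDM2*, had its highest normalized CPM in IgG IP replicate 1.

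As ratios within a library do not depend on scaling, 5 ratios between members were also compared, added after their values had been seen. They were not corrected for GC content or length. The log2 ratio of *BCL2L1* to *MCL1* counts was -1.15, -1.25 and -1.29 with control IgG and -1.03, -0.99 and -0.89 with the IGF2BP3 antibody. That of *BCL2L1* to *BCL2* was -1.0, -1.02 and -0.99 against -0.91, -0.80 and -0.67. The groups did not overlap in either, with differences of 0.26 and 0.21 (exact two-sided permutation test, p = 0.1 for each, 0.17 after Benjamini-Hochberg adjustment over the 5 ratios). The ratio of *MDM2* to *MDM4* was 2.66, 2.62 and 2.45 against 2.36, 2.40 and 2.30, a difference of -0.22 with the same p-values. In TPM the groups of *MDM2* over *MDM4* and of *BCL2L1* over *BCL2* overlapped, with differences of -0.059 and 0.16 (exact permutation test, p = 0.6 and p = 0.2), and those of *BCL2L1* over *MCL1* did not (0.22, p = 0.1). *BCL2* over *MCL1* differed by 0.05 and *BBC3* over *BCL2L1* by -0.42, both with overlapping groups. The single log2 fold changes moved with the corrections. With the GC correction *BCL2L1*, *MCL1* and *BCL2* were at 0.026, -0.091 and -0.025, against 0.17, -0.10 and -0.04 without it. With the length correction *MDM2* and *MDM4* were at -0.18 and -0.070, against -0.12 and 0.10 without it. The median of all tested RNAs was -0.026 with the GC correction and -0.052 with the length correction. Since 3 libraries against 3 allow no smaller p than 0.1 in an exact test, none of the ratios could pass 0.05. The adjustment also does not cover the choice of ratios after their values were seen, so the p-values only describe the separation.

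**Figure D3:**
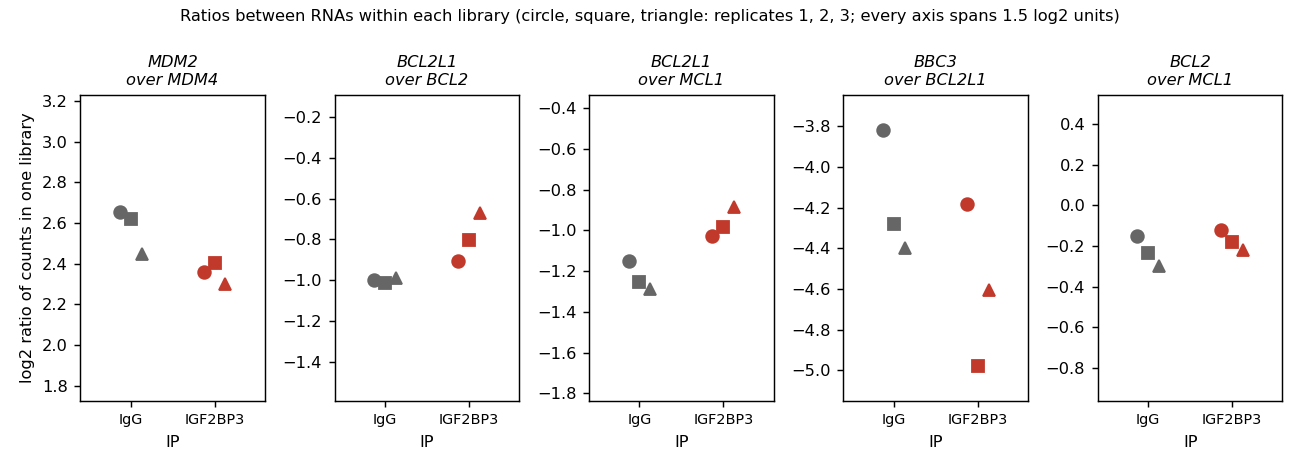
Log2 ratios of raw counts between pairs of the 9 RNAs within each library (y axis; every panel spans 1.5 log2 units), IgG IP in grey and IGF2BP3 IP in red, with circle, square and triangle for replicates 1, 2 and 3. In counts the groups are separate for *MDM2* over *MDM4*, *BCL2L1* over *BCL2* and *BCL2L1* over *MCL1*, by small margins.

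Levels of different RNAs were compared per length, in TPM. In the IgG IP *MDM2* was at 243 ± 50.7 TPM (SD, n = 3) and *CSNK1A1* at 201 ± 34.1 TPM (SD, n = 3), above 96.5% and 95.7% of the tested RNAs. *MCL1* (66.0 ± 20.6), *USP7* (52.2 ± 14.8), *BCL2L1* (51.2 ± 14.9) and *CDKN1A* (46.8 ± 9.29 TPM, SD, n = 3) followed without clear separation. *USP7* was above *BCL2L1* in only 3 of 6 libraries, and *BCL2L1* above *CDKN1A* in 4 of 6. *BCL2* was at 33.2 ± 9.68, *MDM4* at 14.8 ± 2.49 and *BBC3* at 3.39 ± 0.368 TPM (SD, n = 3), each below the one before it in 6 of 6 libraries. The place of *CSNK1A1* depended on the scale. By normalized CPM per kilobase of all annotated exons it stood at 23.75, level with *BCL2L1* (23.75) and behind *MDM2* (72.0), *MCL1* (37.7) and *CDKN1A* (26.4). These values describe RNA left with control IgG, so they are not cellular levels, and the amount of an RNA in the cells and the share of it recovered cannot be told apart in them.

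**Figure D4:**
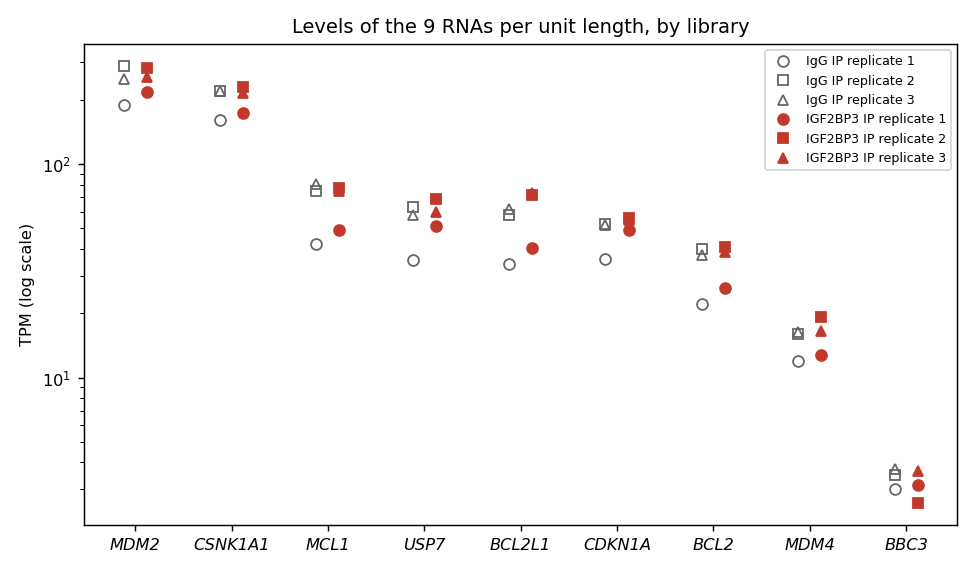
TPM (y axis, log scale) of the 9 RNAs in the 6 libraries, ordered by their mean in the IgG IP, with open grey symbols for IgG IP, filled red symbols for IGF2BP3 IP, and circle, square and triangle for replicates 1, 2 and 3. *MDM2* and *CSNK1A1* lie above the other 7 in every library and *BBC3* below them.

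The neighbours of the 9 in the p53 and cell death pathways were described from 6 further gene lists, of which 92 of 104 genes were tested. In all, 1 of the 92 was enriched and 0 were lower, where 1.16% and 0% of all tested RNAs were. Among 26 other regulators of p53, 0 were enriched or lower, 16 had positive log2 fold changes and the median was 0.03. *HUWE1*, a large ubiquitin ligase that acts on p53 and MCL1, was the highest. Its normalized CPM were 53.2, 71.2 and 65.2 with control IgG and 84.7, 131 and 106 with the IGF2BP3 antibody, with no overlap between groups. At a log2 fold change of 0.76 (standard error 0.16) its adjusted p was 0.068. With the replicate block it was enriched (adjusted p = 1.0e-08), where 3.56% of all tested RNAs were enriched, and also with DESeq2 (adjusted p = 0.0017). With the length correction *HUWE1* was at 0.57, under the 1.5-fold minimum, without or with the block. It was also not called with the GC correction alone (adjusted p = 0.13) or in TPM, where no tested RNA was called enriched. The acetyltransferase RNAs *CREBBP* and *EP300* had log2 fold changes of 0.47 (adjusted p = 0.15) and 0.40 (adjusted p = 0.23), and *OTUB1*, a deubiquitinase, 0.47 (adjusted p = 0.26). Of the 26 regulators 3 had groups that did not overlap, with the IGF2BP3 IP higher, against 12% of all tested RNAs.

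Of 30 other p53 targets, 24 were tested and none passed, with a median log2 fold change of 0.00. The 4 with the smallest p-values were *PIDD1*, a scaffold of caspase-2 activation, at 0.47 (adjusted p = 0.28), *RPS27L* at -0.34 (adjusted p = 0.45, and -0.094 without IgG IP replicate 1), the ribonucleotide reductase subunit *RRM2B* at -0.16 (adjusted p = 0.52) and the cyclin *CCNG1* at -0.15 (adjusted p = 0.64). Of the 24, 12 were positive.

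Of 18 other BCL2 family genes, 14 were tested and none passed, with a median of -0.04. *PMAIP1*, which encodes NOXA, the inhibitor of MCL1, had normalized CPM of 99.4, 94.4 and 94.6 with control IgG and 75.5, 82.0 and 81.5 with the IGF2BP3 antibody. Its groups and those of *BAX* did not overlap, with the IGF2BP3 IP lower, an order that held for 8.69% of all tested RNAs. The log2 fold change of *PMAIP1* was -0.27 (adjusted p = 0.17), and its adjusted p was 0.0058 with the replicate block, short of the 1.5-fold minimum. With the GC correction *PMAIP1* was at -0.16 (adjusted p = 0.54, or 0.092 with the block added), and on log2(TPM + 1) at -0.11. *BAX*, an executioner of mitochondrial cell death, was at -0.21, its activator *BID* at -0.14 and *BAD* at 0.28, with adjusted p-values from 0.48 to 0.73. Without IGF2BP3 IP replicate 1, *BAD* was at -0.11.

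Of 18 genes of apoptosis execution and its inhibitors, 17 were tested, with a median of -0.06. Of these 1 was enriched, against 1.16% of all tested RNAs. This was *BAG6*, which encodes a chaperone of misfolded proteins, at 50.5, 53.1 and 58.5 normalized CPM with control IgG and 70.6, 87.4 and 93.0 with the IGF2BP3 antibody. Its log2 fold change was 0.63 (standard error 0.12), at an adjusted p of 0.040. The call was lost with the GC correction (0.44), the length correction (0.57) and in TPM, and when IGF2BP3 IP replicate 2 or 3, or any one IgG IP library, was left out (0.53 to 0.70), but not without IGF2BP3 IP replicate 1. In TPM and without IGF2BP3 IP replicate 2, no tested RNA was called enriched. *BAG6* was at 0.84 on log2(TPM + 1) and at 0.87 on log2(TPM + 0.1). *CASP2*, the initiator caspase that PIDD1 activates, was at 0.51 (adjusted p = 0.11), and *BIRC6*, a large inhibitor of apoptosis, at 0.24 (adjusted p = 0.28, and 0.042 with the length correction). *CYCS*, the cytochrome c released from mitochondria, was at -0.26 (adjusted p = 0.24).

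Among relatives of *CSNK1A1*, 5 of 6 casein kinase 1 genes were tested and none passed. *CSNK1G1* was at 0.25 (adjusted p = 0.32), *CSNK1E* at 0.10, *CSNK1G2* at -0.04 and *CSNK1D* at -0.08. Among 6 relatives of *CDKN1A*, the CDK inhibitors, none passed either. *CDKN1C*, which encodes p57, had 55.8, 52.9 and 57.1 normalized CPM with control IgG and 70.3, 74.2 and 81.4 with the IGF2BP3 antibody, and a log2 fold change of 0.45 (adjusted p = 0.055). *CDKN1B*, which encodes p27, was at -0.18 (adjusted p = 0.39), *CDKN2B* at -0.38 (adjusted p = 0.48) and *CDKN2D* at -0.12 (adjusted p = 0.62).

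**Figure D5:**
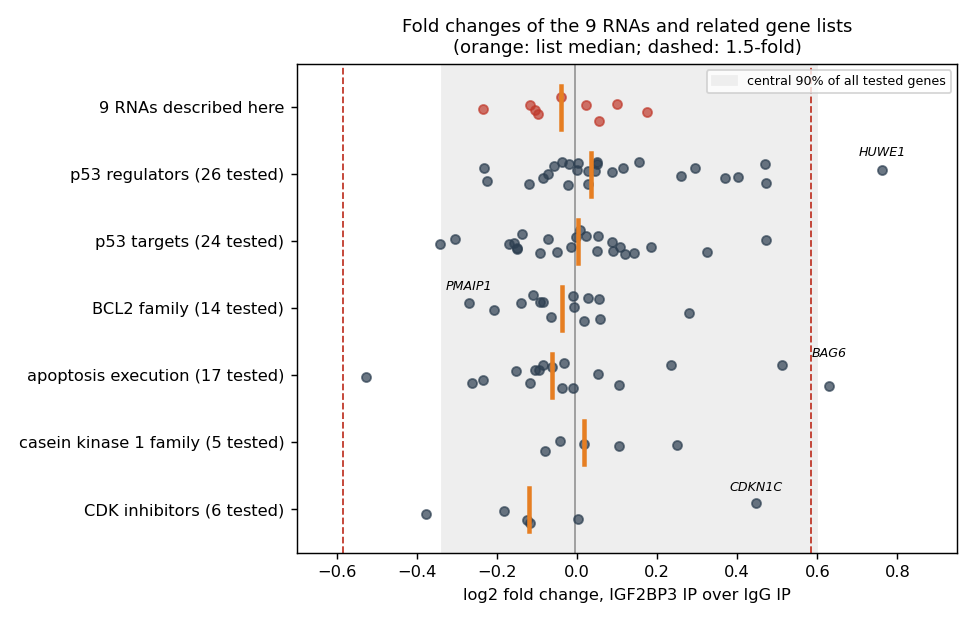
Log2 fold changes (x axis) in the IGF2BP3 IP over the IgG IP for the 9 RNAs (red) and the tested genes of 6 related lists (dark), with list medians (orange), 1.5-fold limits (dashed) and the central 90% of all tested genes (grey band). The 9 RNAs lie between -0.24 and 0.17, while *HUWE1* (0.76) and *BAG6* (0.63) lie beyond the 1.5-fold limit.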

How the data were processed

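RIP-seq libraries from WaGa cells (3 IgG IP, 3 IGF2BP3 IP) were sequenced as paired-end reads of 150 bp. The authors aligned them to GRCh38 with STAR version 2.7.9a, quantified them with RSEM and GENCODE version 37, and deposited unnormalized whole-number counts for each gene, with RSEM's TPM and FPKM beside them. The program that made the counts and its use of strand are not given in the sources used here, so overlapping genes are uncertain.

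Low counts were removed by filterByExpr and TMM factors applied. All remaining genes entered the quasi-likelihood fit of edgeR 4.0.16 in R 4.3.3, in which only condition was a term. A standard error is the log2 fold change divided by the root of F. Alternatives were DESeq2 1.42.0 (the study's test), RLE factors, library totals, no filter, at least 10 counts in every library, limma-trend from limma 3.58.1 for TPM with pseudocounts of 1 and 0.1, offsets from a loess curve of span 0.5 on the GC content of transcripts or on effective length (from counts and FPKM), replicate 1 as a term, each library left out, and a replicate block. The replicate block took libraries of one number as pairs, and the main fit did not. Deviations from the group mean correlated across genes at 0.64, 0.36 and 0.30 between libraries of one number. Cross pairs of replicates 2 and 3 correlated at 0.34 and 0.33, so these values set apart replicate 1 only and do not show how replicates 2 and 3 pair. The chosen genes and lists were picked with earlier results of these data known, and the ratios between members were added after seeing their values. Text names the 9 genes, genes overlapping them, and from each other list the genes past the thresholds and those with the smallest p-values, up to 4 per list. Identifiers of 60437 of 60655 genes were found in GENCODE version 44. Fits were tested on simulated data with known changes. Single values were compared with exact two-sided permutation tests.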

Additional observations from a re-analysis of the deposited data

How the results depend on the processing

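None of the 9 RNAs was enriched or lower under any of the 20 alternatives. Some of these could not show enrichment of the 9. With limma-trend on either TPM scale and without IGF2BP3 IP replicate 2, no tested RNA was called enriched. Of 180 combinations of one of the 9 RNAs and an alternative, 159 kept the direction and 21 changed it, all without a call. *BCL2L1* (0.026 to 0.28) and *BBC3* (-0.51 to -0.096) kept theirs throughout. With limma-trend on log2(TPM + 1) and log2(TPM + 0.1), where the median of all tested RNAs rose to 0.11 and 0.13, *MDM2* was at 0.070 and 0.070, *CSNK1A1* at 0.048 and 0.049, *BCL2* at 0.11 and 0.11, *MCL1* at 0.047 and 0.049, *CCNG1* at 0.044 and 0.044, *BID* at 0.036 and 0.036, *CSNK1G2* at 0.059 and 0.064, and *CDKN2D* at 0.042 and 0.043. The length correction put the median of all tested RNAs at -0.052, and the GC correction put it at -0.026. After correcting for length, *MDM4* was at -0.070 (-0.073 with the replicate block added) and *USP7* at -0.049 (-0.048), both near that median. After correcting for GC content, *USP7* was at -0.016 (-0.014), *CDKN1A* at -0.10 (-0.11), *CSNK1E* at -0.066 (-0.066) and *BAD*, with the block only, at -0.012. Leaving out one library gave -0.076 to 0.11 for *USP7*, -0.11 to 0.013 for *BCL2* (above 0 without IgG IP replicate 3 or IGF2BP3 IP replicate 1), -0.11 to 0.49 for *BAD* and -0.21 to 0.081 for *CSNK1D* (above 0 when replicate 2 of the IgG IP or replicate 1 of the IGF2BP3 IP was left out). The causes were not tested.

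Over all tested RNAs, 169 were enriched and 0 lower. The enriched numbered 281 with DESeq2, 359 without a filter, 0 with limma-trend on log2(TPM + 1) and 0 on log2(TPM + 0.1), 517 with the replicate block in edgeR, 321 with it in DESeq2, 537 with replicate 1 as a term, 82 with the GC correction, 273 with that and the block, and 385 with the length correction and the block. The lower numbered 1 without a filter, 15 and 1 with the block in edgeR and DESeq2, 23 with replicate 1 as a term, and 32 and 30 with the GC and length corrections and the block. Leaving out one library gave 0 to 244 enriched, with 0 without IGF2BP3 IP replicate 2, 7 and 19 without IgG IP replicates 3 and 2, and 23 without IGF2BP3 IP replicate 3. Among the p53 regulators 1 RNA, *HUWE1*, was enriched with DESeq2, without a filter, with the block in edgeR and DESeq2, with replicate 1 as a term and with the GC correction and the block, and 0 to 1 with one library left out. The 1 enriched RNA of apoptosis execution, *BAG6*, became 0 with limma-trend on either scale and with the GC or length correction, without or with the block, and 0 to 1 with one library left out. The replicate block changed no other call among the named genes. Depth limits *BBC3* most, with 50 to 79 counts per library.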
